A study of Mus musculus with 9 samples.

Results

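The genes described here are 32 genes of the synaptic vesicle and of regulated exocytosis, the release of stored vesicles on a calcium signal. They were taken as the rows of the deposited tables whose symbol is one of the 32 names, out of 57010 gene identifiers per table, and all 32 were found and tested in both tables. The names fall into calcium sensors and C2-domain effectors (8 genes), proteins of the vesicle membrane (5), SNAREs and their recycling factors (5), Rab3 GTPases (4), active zone scaffolds (4) and priming and clamping factors (6). The symbol Cplx2 stands on 2 rows, and the row that the reference annotation also names Cplx2 was used. The other row, a lincRNA in that annotation, had means of 4.51 in Normal and 15.7 in SCLC and did not pass the test.

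RNA was sequenced from mouse organoids, cultures that grow as small tissue-like bodies. The 9 libraries make 3 groups of 3. Normal stands for organoids of normal lung, SCLC for organoids of small cell lung cancer, and GSK for SCLC cultures given an agent of that name. The sources used here do not give genotype, strain, age, the culture or clone behind each library, what GSK is, its dose, its time, or a vehicle for the SCLC group. Nothing says that the 3 libraries of a group come from separate animals or cultures, so the errors measure only the spread between these libraries. The questions are how the cancer organoids differ from normal lung and how GSK changes the cancer organoids.

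A nerve terminal or endocrine cell stores transmitter or peptide in vesicles and docks them at the plasma membrane. A SNARE bundle made of a vesicle protein and plasma membrane proteins pulls the membranes together, complexin and Munc13 proteins hold and prime it, and synaptotagmin starts fusion when calcium enters. Rab3 and the scaffolds RIM, Bassoon and Piccolo place the vesicle at its release site. Small cell lung cancer is a neuroendocrine tumour, and pulmonary neuroendocrine cells release peptides and amines from dense core vesicles with much of the same machinery.

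The values are the authors' comparisons of 3 libraries against 3, with no value for a single library, so whether libraries of the groups overlap was not seen. A level is the mean of normalized counts in a group of 3 libraries, worked out from a gene's overall mean and its fold change. A change is the authors' log2 fold change ± its standard error, with the authors' adjusted p (Benjamini-Hochberg), and "rose" or "fell" means an adjusted p under 0.05. The summed level per library was 44.7 M (mega) normalized counts in Normal and 42 M in SCLC in the first table, and 45.3 M in SCLC and 31.9 M in GSK in the second. The tables were scaled separately and share the SCLC libraries, so a gene's fall in the second is not independent of its rise in the first. For a gene with a group of 3 or fewer normalized counts in all, the fold is given with a 95% counting interval that treats normalized counts as reads and covers counting error only.

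The cell identity of the groups was checked on marker lists. All 7 neuroendocrine markers (such as Insm1 and Chga) were higher in SCLC than in Normal, with a summed level of 84.2 in Normal and 149121 in SCLC. Higher in Normal than in SCLC were markers of alveolar type II cells (Sftpc and others, 5 of 5) and club cells (3 of 3). So were those of fibroblasts (4 of 4) and immune cells (4 of 4). Of the immune markers, Lyz2 had 108056 in Normal, but Ptprc only 144, Cd68 262 and Adgre1 735. How far Lyz2 stands for immune cells there was not tested. Of 8 neuron markers 4 rose and 2 fell in SCLC, and of 5 glia and Schwann markers tested 1 rose and 1 fell. In bulk RNA, fewer cells of a type and less RNA per cell cannot be told apart.

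Promoter sequence is shown for 4 of these genes because the literature on neuronal genes turns on the element RE1, the binding sequence of the repressor Rest, and these genes differ in whether its letters are present. The windows run from 250 bases before to 50 bases from the annotated start on, from RefSeq on GRCm38.p6, and 24 of the 32 genes had an entry (32 windows). Syn1 (synapsin I) lies at chrX:20920869-20921168 and Unc13a (Munc13-1) at chr8:71671708-71672007. Cplx1 (complexin I), the gene with the highest fold change in SCLC, lies at chr5:108549978-108550277, and Rab3d, which fell there, at chr9:21918134-21918433. All 4 are on the minus strand and are printed 5′ to 3′ on the gene's strand. Capitals mark the left part of RE1 (TTCAGCACC), its right part (GGACAGC) or a cyclic AMP response element (TGACGTCA) on either strand.
Syn1: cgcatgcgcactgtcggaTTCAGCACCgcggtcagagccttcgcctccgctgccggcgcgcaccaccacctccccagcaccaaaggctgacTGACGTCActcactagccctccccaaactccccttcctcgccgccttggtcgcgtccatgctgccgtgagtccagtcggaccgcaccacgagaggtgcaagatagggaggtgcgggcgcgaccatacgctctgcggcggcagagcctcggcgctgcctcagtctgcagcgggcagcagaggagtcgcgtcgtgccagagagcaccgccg
Unc13a: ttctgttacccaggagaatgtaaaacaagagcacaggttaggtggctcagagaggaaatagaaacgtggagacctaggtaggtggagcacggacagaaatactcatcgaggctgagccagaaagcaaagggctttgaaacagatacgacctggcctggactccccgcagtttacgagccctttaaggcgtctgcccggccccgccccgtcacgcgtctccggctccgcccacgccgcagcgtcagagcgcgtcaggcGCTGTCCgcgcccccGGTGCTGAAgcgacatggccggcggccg
Cplx1: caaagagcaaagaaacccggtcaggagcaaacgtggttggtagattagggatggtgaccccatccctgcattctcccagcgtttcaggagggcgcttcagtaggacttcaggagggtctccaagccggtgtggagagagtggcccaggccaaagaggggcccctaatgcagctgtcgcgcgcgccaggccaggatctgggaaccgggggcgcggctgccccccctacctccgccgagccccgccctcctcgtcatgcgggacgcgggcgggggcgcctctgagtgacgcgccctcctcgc
Rab3d: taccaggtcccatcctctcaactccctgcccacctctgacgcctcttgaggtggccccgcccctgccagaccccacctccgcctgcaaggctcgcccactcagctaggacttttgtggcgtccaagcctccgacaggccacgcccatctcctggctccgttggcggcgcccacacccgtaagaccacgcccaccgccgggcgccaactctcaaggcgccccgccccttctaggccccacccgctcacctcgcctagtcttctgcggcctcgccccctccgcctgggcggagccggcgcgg

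The Syn1 window held the left part of RE1 from 232 to 224 bases before the start and the cyclic AMP response element from 159 to 152 bases before it. In Unc13a both RE1 parts lay after the start on the opposite strand, the right part at bases 8 to 14 and the left part at bases 23 to 31. The left part stood in 0.371% of 32851 windows of all genes and in 6.25% of the 32 windows of these genes (Syn1 and Unc13a). Both parts together, as exact letters at any spacing, order or strand, stood in 0.0426% of all windows and, among these genes, in Unc13a alone. The right part was in 6.56% of all windows and in 9.38% of theirs, and the cyclic AMP response element in 1.79% and 3.12%. An E-box of the letters CAGCTG, a letter pattern bound by many basic helix-loop-helix factors, stood in 28.1% of the windows of these genes (9 of 32, among them Cplx1, Bsn, Syt1 and Rab3a) and in 16.3% of all windows. No element capitalised here stood in the Cplx1 or Rab3d window. A part with any changed letter was not counted, so an inexact element was missed, and both parts together need not form a whole RE1. A match is a description of letters and was not tested as a site.

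In SCLC against Normal, 27 of the 32 genes rose, 1 (Rab3d) fell and 4 (Syt13, Rph3a, Nsf and Unc13b) did not pass, by the authors' deposited table. Over all 24719 genes tested there, 25.3% rose and 25.1% fell. The 32 genes had a median log2 fold change of 4.60 in the authors' deposited table, against 0.10 over all genes tested. That median stayed at 4.60 when groups under 3 normalized counts were set to that floor. Their summed level was 16756 in Normal and 123056 in SCLC. Of the 30 with a mean of at least 50, 26 rose and 1 fell, where 36.3% of all such genes rose and 30.0% fell. When a change of more than 1 log2 unit was tested in place of any change, 25 rose, and Vamp2, Rab3a and Rab3d no longer passed. By that test 11.9% of all genes rose and 13.7% fell.

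**Figure D1:**
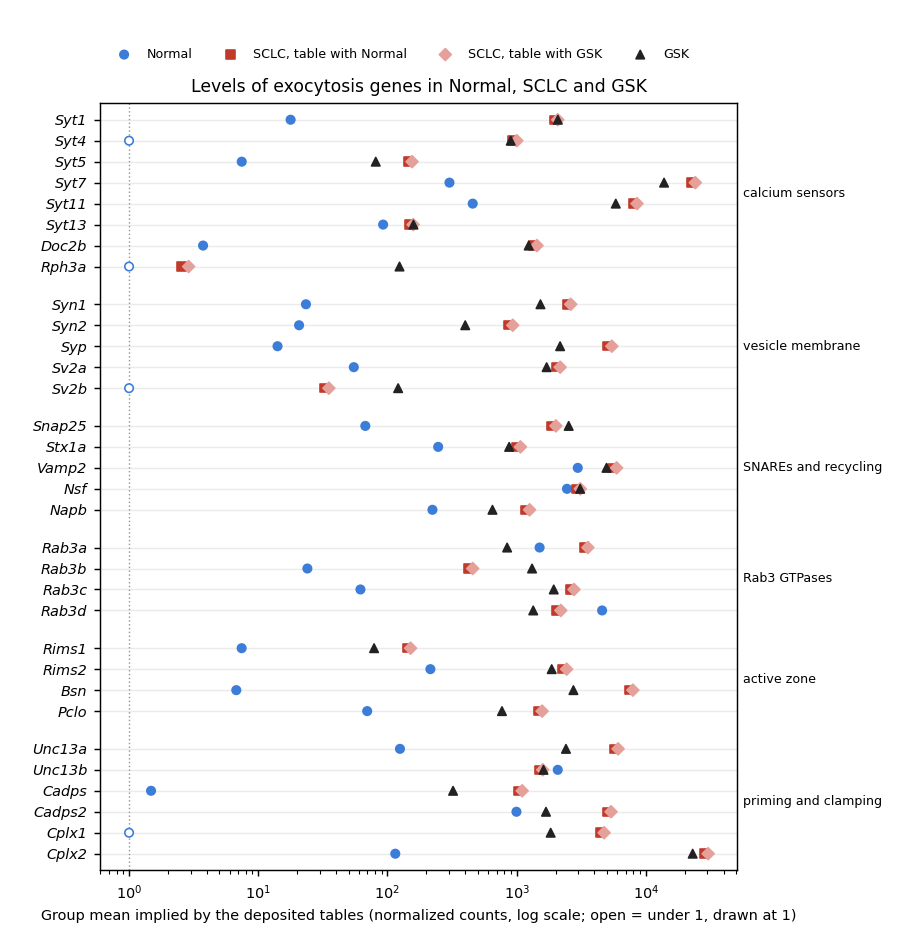
Implied group mean of each of the 32 genes (horizontal axis, normalized counts, log scale) by role, for Normal and SCLC from the first table and SCLC and GSK from the second; points have no error bars since no library values are given, and open points lie under 1. Most Normal points sit left of the SCLC points, while Rab3d and Unc13b sit right of them, and Rph3a is near 3 in SCLC and at 124 in GSK.

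Among the calcium sensors, 6 of 8 rose in SCLC and 2 did not pass. Syt7, the slow high-affinity sensor of dense core vesicle and lysosome release, went from 302 to 22353, and its log2 fold change of 6.21 ± 0.23 had the lowest adjusted p of the 32 genes (1.96e-164, authors' deposited table). Syt1, the fast sensor of the nerve terminal, rose from 17.8 to 1944 (6.77 ± 0.50 in the authors' deposited table, adjusted p 1.06e-40). Syt4, found on dense core vesicles, had 1.23 normalized counts over the 3 Normal libraries and a mean of 928 in SCLC, a ratio of 2259 with a counting interval of 466 to 49386. Syt1 and Syt4 were thus near the detection limit or low in Normal, while Syt7 was already present there.

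Doc2b, a soluble high-affinity calcium sensor, rose from 3.74 to 1342 (8.49 ± 0.83, authors' deposited table). Syt5, another dense core vesicle isoform, rose from 7.45 to 145 (4.29 ± 0.73), and Syt11, an isoform that does not bind calcium, from 457 to 7954 (4.12 ± 0.35), in the same authors' deposited table. Not every member of the family moved. Syt13, which also lacks calcium binding, had means of 92.6 and 148 and an adjusted p of 0.271, with a 95% interval of −0.32 to 1.68 for its log2 change in the authors' deposited table. Rph3a (rabphilin), a Rab3 effector, was barely detected, with means of 0.786 in Normal and 2.55 in SCLC.

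All 5 proteins of the vesicle membrane rose. Syp (synaptophysin), the vesicle protein used in pathology as a neuroendocrine stain, went from 14.1 to 5056, a log2 fold change of 8.49 ± 0.50 in the authors' deposited table (adjusted p 1.88e-61). The synapsins, which tether vesicles into a reserve pool, both rose: Syn1 from 23.4 to 2444 (6.71 ± 0.57) and Syn2 from 20.7 to 866 (5.39 ± 0.46, authors' deposited table). Sv2a, the vesicle glycoprotein that binds the antiepileptic levetiracetam, rose from 54.9 to 2026 (5.21 ± 0.41 in the authors' deposited table). Its paralogue Sv2b stayed low, at a mean of 32.7 in SCLC with 1.22 normalized counts over the 3 Normal libraries, a ratio of 80.7 with a counting interval of 16.1 to 1843 (adjusted p 0.000771, authors' deposited table).

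Of the 5 SNARE and recycling genes 4 rose, with a median log2 fold change of 2.01 in the authors' deposited table, the lowest median of the 6 roles. Snap25, the neuronal SNARE of the plasma membrane, changed most, from 67.4 to 1868 (4.79 ± 0.35, adjusted p 1.01e-41, authors' deposited table). Its partner Stx1a (syntaxin 1A) rose from 247 to 997 (2.01 ± 0.32), and the vesicle SNARE Vamp2 (synaptobrevin 2) from 2973 to 5509 (0.89 ± 0.20, adjusted p 2.12e-05), in the authors' deposited table. Napb, the brain form of the SNARE adaptor SNAP, rose from 223 to 1176 (2.40 ± 0.51, authors' deposited table). Nsf, the ATPase that takes SNARE bundles apart in every cell, had means of 2453 and 2885, with a 95% interval of −0.13 to 0.60 in the authors' deposited table (adjusted p 0.294). Per kilobase of its longest transcript, each of Vamp2 (1348) and Nsf (651) had a higher Normal level than the other SNARE members, of which Stx1a came next (114).

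The 4 Rab3 GTPases, which ride on secretory vesicles and recruit effectors, differed in direction. Rab3c rose from 61.8 to 2590 (5.39 ± 0.50) and Rab3b from 24 to 425 (4.15 ± 0.44), in the authors' deposited table. Rab3a, the main neuronal form, rose from 1506 to 3307 (1.14 ± 0.30, adjusted p 0.000473, authors' deposited table). Rab3d, a form known from exocrine and other secretory epithelia, fell from 4588 to 2038 (−1.17 ± 0.25, adjusted p 9.86e-06, authors' deposited table). On the same scale, Rab3d was the highest Rab3 gene in Normal (1181 normalized counts per kb, against 968 for Rab3a), and Rab3a the highest in SCLC (2125, against 525 for Rab3d). How alveolar cells in the Normal libraries contribute to the Rab3d level was not tested.

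All 4 active zone scaffolds rose. Bsn (Bassoon), a giant scaffold of the presynaptic membrane, went from 6.76 to 7436, a log2 fold change of 10.10 ± 0.75 in the authors' deposited table (adjusted p 1.09e-39). Its relative Pclo (Piccolo) rose from 69.7 to 1474 (4.40 ± 0.52, authors' deposited table). The RIM proteins link Rab3 to calcium channels: Rims2 rose from 215 to 2259 (3.40 ± 0.50) and Rims1 from 7.44 to 142 (4.25 ± 0.72), in the authors' deposited table. Rims2, the form best known from endocrine cells, had the higher level of the RIM pair, at 471 per kb in SCLC against 22 per kb for Rims1 (44.7 and 1.15 in Normal).

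Of the 6 priming and clamping factors 5 rose. The complexins, small proteins that bind the SNARE bundle and both clamp and promote fusion both rose. Cplx2 went from 115 to 28136 (7.94 ± 0.34, adjusted p 2.16e-119, authors' deposited table). Cplx1 had 2.4 normalized counts over the 3 Normal libraries and a mean of 4400 in SCLC, a ratio of 5497 with a counting interval of 1680 to 34855 (adjusted p 9.75e-23, authors' deposited table). Cadps (CAPS1), which primes dense core vesicles, rose from 1.48 to 1025 (9.43 ± 1.13), and its paralogue Cadps2 from 997 to 4990 (2.32 ± 0.31), in the authors' deposited table. The Munc13 genes, which open syntaxin for SNARE assembly, did not move alike. Unc13a rose from 125 to 5672 (5.50 ± 0.30, adjusted p 1.9e-72), while Unc13b, the more widely expressed form, had means of 2081 and 1484 (−0.49 ± 0.29, adjusted p 0.15), in the authors' deposited table. Centred on the median gene (genes of mean 100 or more), Unc13b did pass as lower (−0.67, adjusted p 0.0408, from the authors' deposited table).

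**Figure D2:**
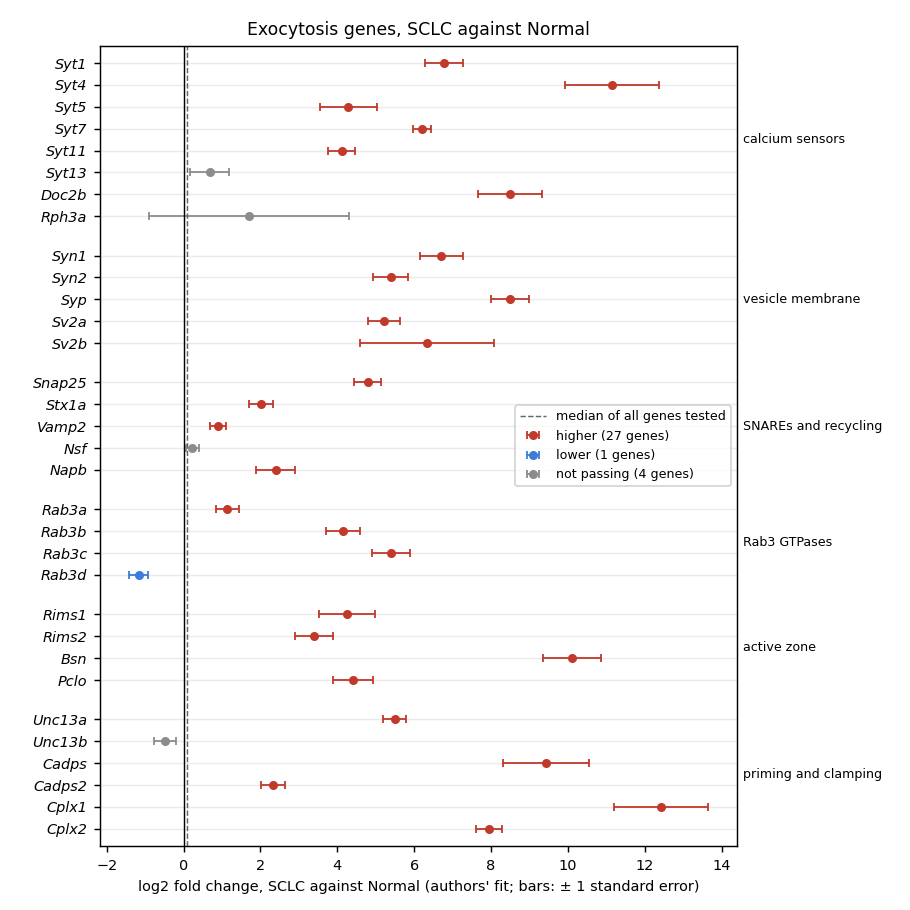
Authors' log2 fold change of SCLC against Normal (horizontal axis) with bars of ± 1 standard error, for the 32 genes by role; red marks genes that rose, blue genes that fell and grey genes that did not pass, and the dashed line is the median of all genes tested (0.10). Cplx1, Syt4 and Bsn lie beyond 10, the SNARE genes lie between 0.23 and 4.79, and Rab3d is the blue point at −1.17.

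Levels per kilobase, a rough scale that uses the longest annotated coding transcript, show which copies of each protein class dominated. In SCLC the order of implied means per kb was led by Cplx2 (5709), Syt7 (3375), Vamp2 (2499), Rab3a (2125), Cplx1 (2010) and Syp (1951). In Normal it was led by Vamp2 (1348), Rab3d (1181), Rab3a (968), Nsf (651) and Cadps2 (201). With the median transcript length instead, Syt7 came first in SCLC and Nsf first in Normal, so the order among the leading genes depends on the length used. Without library values, the spread behind neighbours in these orders was not seen.

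The rest of the exocytosis pathway was read from 105 other genes in 8 lists, of which 104 had a row (Vamp7 had none) and 99 had an adjusted p. Of these, 36 rose and 30 fell in SCLC in the authors' deposited table, or 36.4% and 30.3%. Over all genes tested, 25.3% rose and 25.1% fell. Of the 99 genes 88 had a mean of at least 50, and among all such genes 36.3% rose and 30.0% fell. The pathway totals were thus close to those shares. The lists differed. Of 18 further neuronal release genes 11 rose and 4 fell (median log2 fold change 3.41, authors' deposited table). Rimbp2, a RIM-binding protein, had 1.23 normalized counts over the Normal libraries and a mean of 1355 in SCLC, and the RIM family member Rims4 rose from 2.23 to 2580. Vamp1, Stxbp6, Unc13c and Snapin fell, so the list did not move as a block.

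The broad and epithelial SNARE machinery showed the opposite counts: 1 of 15 genes tested rose (Napa), 10 fell and 4 did not pass, with a median log2 fold change of −2.04 in the authors' deposited table. Vamp8, a vesicle SNARE of exocrine and blood cell secretion, fell from 16239 to 528 (−4.94 ± 0.29, authors' deposited table). Snap23, the general counterpart of Snap25, fell from 2641 to 1035 (−1.35 ± 0.24), and Stx3, the apical syntaxin, from 2682 to 652 (−2.04 ± 0.24), in the authors' deposited table. Per kb, Snap23 stood above Snap25 in Normal (967 against 31.8) and below it in SCLC (379 against 883). Unc13d (Munc13-4), which serves granule release in immune and other blood cells, fell from 5607 to 18.6, and Stx11 from 1208 to 14.9. Stx11 and Unc13d are also used by immune cells, whose 4 markers summed to 109197 in Normal and 54 in SCLC. Lyz2 alone made up 108056 of the Normal sum, and the others were low there (Ptprc 144, Cd68 262 and Adgre1 735). The sum is therefore not a measure of immune content, and the part of such cells in these falls was not tested.

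Of 16 genes around Rab27, the other GTPase of secretory granules, 1 rose and 8 fell. Rab27a fell from 12583 to 1077 (−3.55 ± 0.33, authors' deposited table), while its effector Myrip, with 1.23 normalized counts over the Normal libraries, had a mean of 2298 in SCLC. Among 12 other synaptotagmin and C2-domain genes tested 6 rose and 1 fell: Syt9 reached a mean of 2097 and Syt2 4622, and Syt8 was at least 134-fold lower than its Normal mean of 134. Vesicle endocytosis genes were split, with 5 of 10 higher and 3 lower. Snap91 (AP180) went from 2.24 to 5796 and Dnm1 (dynamin 1) from 850 to 3452. The 3 that fell were Dnm3 (916 to 177), Dnm2 (9735 to 5881) and Picalm (7050 to 4318). Other vesicle membrane genes (5 of 11 higher, 1 lower) included Sv2c, at a mean of 1642 in SCLC, and dense core vesicle genes (5 of 10 higher) included Ptprn, from 2580 to 5282. Of 9 vesicular transmitter transporters 3 were under the floor of 3 normalized counts in Normal and 3 in SCLC, not all of them the same genes. Slc17a7 rose from 21.6 to 367, Slc18a1 fell from 322 to 17.9, and 2 of the 7 tested rose while 3 fell.

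In GSK against SCLC, 2 of the 32 genes rose (Rph3a and Rab3b), 11 fell and 19 did not pass, by the authors' deposited table. Of all 28376 genes tested, 21.6% rose and 15.5% fell. All 32 had a mean of at least 50 there, and among all such genes 22.1% rose and 27.5% fell. The share of the 32 genes that fell, 34.4%, was close to the latter, and the share that rose, 6.25%, was below the former; how both shares read depends on the scaling, given next. Their median log2 fold change was −0.53 in the authors' deposited table, against 0.24 over all genes tested and −0.19 over those with a mean of at least 50. The summed level of the 32 genes was 132526 in SCLC and 84149 in GSK. When a change of more than 1 log2 unit was tested, 1 rose (Rph3a) and 1 fell (Rab3a), where 11.1% of all genes rose and 1.98% fell.

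Scaling matters here, because the summed counts of GSK were lower than those of SCLC by 0.51 on the log2 scale. Scaled to total counts, 4 of the 32 genes were higher (Snap25 and Sv2b in addition) and 7 lower, and Syt7, Syn1, Rab3d and Bsn no longer passed. Under that scaling 30.8% of all genes tested were higher and 6.94% lower, and of those with a mean of at least 50, 33.7% and 12.1%. The 7 of 32 genes that fell are then a larger share than either background, and the 4 that rose a smaller one. The share of higher calls among all genes called went from 58.2% to 81.6%. The 7 genes lower under both scalings were Rab3a, Cadps, Cadps2, Cplx1, Unc13a, Syp and Syn2.

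The composition of the GSK libraries also differed. Immune markers (4 of 4 higher) summed to 58.1 in SCLC and 110869 in GSK, fibroblast markers (4 of 4 higher) to 19.1 and 13268, and club cell markers (2 of 3 higher) to 213 and 6298. Lyz2 made up most of the immune sum in GSK (94202), as in Normal (108056). Ptprc had 12562 in GSK and 144 in Normal, so the immune sums of GSK and Normal are not alike in make-up. Alveolar type II markers, 4 of 5 higher, summed to 4867 in SCLC and 6115 in GSK. The largest part of both sums was Abca3, the marker that did not pass (4511 and 2875). Among those that rose, Sftpc went from 232 to 1858. Neuroendocrine markers summed to 160999 in SCLC and 70617 in GSK, with 3 of 7 lower (Insm1 and Uchl1 among them), Calca higher and the rest, such as Chga, not passing. Of 7 neuron markers tested 2 rose and 1 fell, and of 6 glia and Schwann markers 2 rose. The part of these cells in the changes of the 32 genes was not tested.

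**Figure D3:**
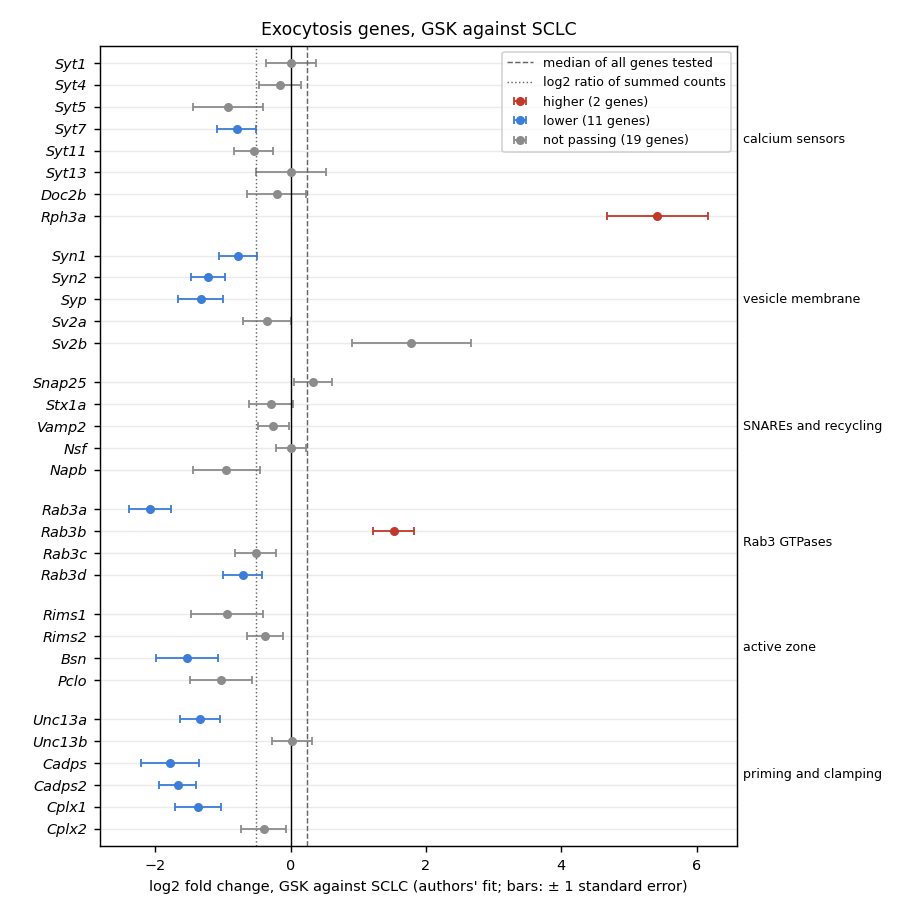
Authors' log2 fold change of GSK against SCLC (horizontal axis) with bars of ± 1 standard error, for the 32 genes by role; red marks genes that rose, blue genes that fell and grey genes that did not pass. The dashed line is the median of all genes tested (0.24) and the dotted line the log2 ratio of summed counts (−0.51); the 11 genes that fell lie between −2.08 and −0.71, and Rph3a stands alone at 5.42.

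Rph3a had the largest change, from 2.89 to 124 (5.42 ± 0.75, adjusted p 1.04e-11, authors' deposited table), after means under 3 in both groups of the first table. Per kb it stood in place 30 of the 32 genes in GSK, at 29.8. The other gene that rose was Rab3b, from 457 to 1316 (1.52 ± 0.30, adjusted p 3.47e-06, authors' deposited table). Its relative Rab3a fell from 3560 to 844 (−2.08 ± 0.31, adjusted p 6.25e-10, authors' deposited table). The Rab3 genes thus moved in both directions, with Rab3d at −0.71 ± 0.29 (2197 to 1344, adjusted p 0.0443) and Rab3c at −0.52 ± 0.30 (2779 to 1938, adjusted p 0.17) in the authors' deposited table. Rab3d lost its call under 5 of 6 alternatives (adjusted p from 0.0443 to 1 over all of them).

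Of the 6 priming and clamping factors 4 fell. Cadps fell from 1103 to 322 (−1.78 ± 0.43, adjusted p 0.000219) and Cadps2 from 5379 to 1687 (−1.67 ± 0.27, adjusted p 4.92e-09), in the authors' deposited table. Unc13a fell from 6100 to 2409 (−1.34 ± 0.29) and Cplx1 from 4753 to 1834 (−1.37 ± 0.34), in the authors' deposited table. Their paralogues gave other values: Unc13b had means of 1592 and 1614 (95% interval of the log2 change −0.54 to 0.58), and Cplx2 of 30362 and 23049 (−1.05 to 0.25), in the authors' deposited table. Both intervals include 0, and the differences between paralogues were not tested.

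Of the vesicle membrane proteins 3 of 5 fell. Syp fell from 5454 to 2170 (−1.33 ± 0.33, adjusted p 0.0003) and Syn2 from 933 to 400 (−1.22 ± 0.25, adjusted p 7.08e-06), in the authors' deposited table. Syn1 fell from 2623 to 1529 (−0.78 ± 0.28, adjusted p 0.0186, authors' deposited table), but not when scaled to total counts (−0.27, adjusted p 0.475). Sv2a had means of 2172 and 1707 (−0.35 ± 0.36) and Sv2b of 35.2 and 121 (1.78 ± 0.88, adjusted p 0.0992), in the authors' deposited table. Scaled to total counts, Sv2b passed as higher, at 2.28 (adjusted p 0.0276, from the authors' deposited table).

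None of the 5 SNARE and recycling genes passed in GSK against SCLC, at adjusted p from 0.114 (Napb) to 0.993 (Nsf) in the authors' deposited table, and 0 of them had an unadjusted p under 0.05. Snap25 had means of 2013 and 2529 (0.33 ± 0.28, authors' deposited table), and scaled to total counts it passed as higher (0.84, adjusted p 0.00898, from the authors' deposited table). Vamp2 had means of 5944 and 4961, with a 95% interval of −0.70 to 0.18 in the authors' deposited table, and Stx1a of 1070 and 875 (−0.91 to 0.33). The intervals of Nsf (−0.43 to 0.42) and Napb (−1.91 to 0.00) in the authors' deposited table differ in width, so a change of Napb by more than 1 log2 unit is within its error.

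Among the active zone scaffolds Bsn fell from 7935 to 2751 (−1.53 ± 0.46, adjusted p 0.00338, authors' deposited table) but not when scaled to total counts (−1.02, adjusted p 0.0631). Pclo, from 1574 to 770, missed the threshold (−1.03 ± 0.46, adjusted p 0.0617, authors' deposited table). Rims1 (151 to 78.8) and Rims2 (2438 to 1868) did not pass either, at −0.94 ± 0.53 and −0.38 ± 0.27 in the authors' deposited table. All 4 values were negative, and 1 of the 4 passed.

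Among the calcium sensors other than Rph3a, Syt7 fell from 24149 to 13837 (−0.80 ± 0.29, adjusted p 0.0162, authors' deposited table), a call lost when scaled to total counts (−0.30, adjusted p 0.437). Syt1, with means of 2081 and 2085, had a 95% interval of −0.72 to 0.72, and Syt4, at 1003 and 900, of −0.77 to 0.46, in the authors' deposited table. Doc2b (1437 and 1240), Syt11 (8545 and 5854), Syt5 (155 and 81.2) and Syt13 (158 and 159) did not pass either. Most sensors that were high in SCLC thus gave no call in GSK.

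Of the 104 other pathway genes 28 rose and 25 fell in GSK against SCLC, with a median log2 fold change of 0.04 in the authors' deposited table, or 26.9% and 24% beside 21.6% and 15.5% of all genes tested. Of the 104 genes 88 had a mean of at least 50, and among all such genes 22.1% rose and 27.5% fell. The share that fell was thus above that of all genes tested but below that of genes with such a mean. Scaled to total counts, 38 rose and 16 fell, beside 30.8% and 6.94% of all genes. Among all genes with a mean of at least 50, that scaling gave 33.7% and 12.1%. Other vesicle membrane genes fell in 6 of 11 cases. Sv2c fell from 1759 to 91.9 (−4.26 ± 0.49) and Syngr1 (synaptogyrin 1) from 5985 to 1708 (−1.81 ± 0.31), in the authors' deposited table. Scaled to total counts, 3 of these 11 fell and 1 rose. Among other neuronal release genes 3 rose and 5 fell: Ppfia3 (liprin-alpha-3) fell from 1759 to 362 (−2.28 ± 0.41), while Ppfia4 rose from 78.7 to 378 (2.26 ± 0.37), in the authors' deposited table.

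Broad and epithelial SNARE genes rose in 7 of 15 cases and fell in 1. Stx11 rose from 16 to 678 (5.41 ± 0.72) and Unc13d from 19.9 to 764 (5.26 ± 0.58), in the authors' deposited table, beside the immune markers given above. Snap23 (1120 and 1643), Vamp8 (571 and 805) and Stx3 (702 and 592) did not pass. Napa, the general form of the SNARE adaptor, fell from 12329 to 3660 (−1.75 ± 0.28, authors' deposited table). Rab27 genes rose in 5 of 16 cases and fell in 3, with Rab27a at 1154 and 2464 and Rab27b at 419 and 80.2.

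Other synaptotagmin and C2-domain genes rose in 5 of 14 cases and fell in 3. Syt15 rose from 3.16 to 104 (5.04 ± 0.96) and Syt16 from 139 to 411 (1.57 ± 0.48), in the authors' deposited table. The other genes that rose were Doc2a and, at low means in GSK, Syt8 (12.3) and Otof (22.6). Syt12 fell from 174 to 36.4, Syt3 from 262 to 64.9 and Syt9 from 2253 to 1007 (−1.16 ± 0.29, authors' deposited table). Vesicle endocytosis genes fell in 4 of 10 cases and rose in 2 (1 and 2 when scaled to total counts), with Dnm1 at 3705 and 1077 and Picalm, the general relative of Snap91, at 4663 and 9429. Dense core vesicle genes gave 1 rise (Ica1l) and 2 falls (Eipr1 and Arfip2) among 11. Of 9 transporters 5 rose and 1 fell, Slc17a9 (nucleotide transport) going from 19.4 to 364 and Slc17a7 (glutamate) from 393 to 27.7.

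**Figure D4:**
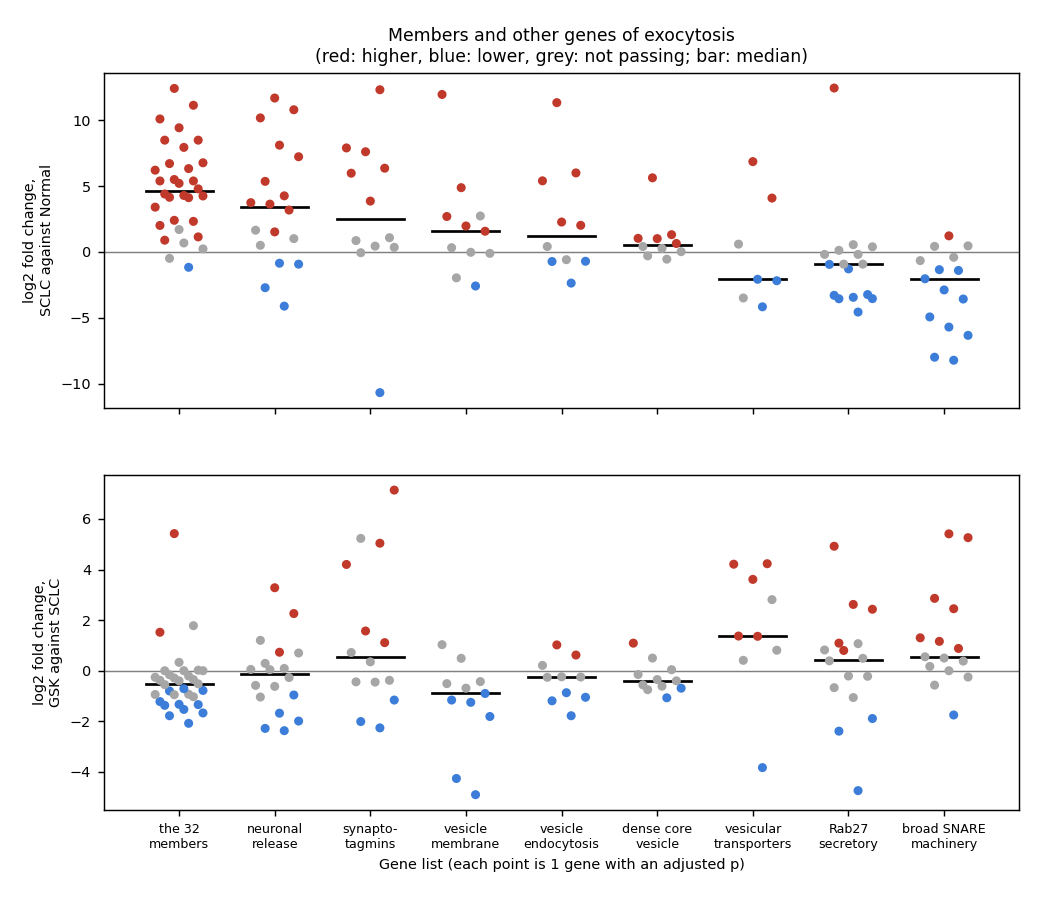
Authors' log2 fold change (vertical axes) of SCLC against Normal (top) and GSK against SCLC (bottom) for the 32 genes and for 8 lists of other exocytosis genes; each point is 1 gene with an adjusted p, red higher, blue lower, grey not passing, and bars are medians. In the top panel the median of the 32 genes is 4.60 and that of the broad SNARE machinery −2.04; in the bottom panel they are −0.53 and 0.55.

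Rest, the repressor that binds RE1, fell in SCLC from 2720 to 118 (−4.52 ± 0.77, adjusted p 2.26e-08, authors' deposited table). In GSK it rose from 126 to 764 (2.60 ± 0.85, adjusted p 0.00795, authors' deposited table). Syn1 and Unc13a, whose windows hold RE1 letters, changed by 6.71 and 5.50 in SCLC and by −0.78 and −1.34 in GSK, in the authors' deposited tables. Cplx1 and Rab3d, printed beside them, changed by 12.42 and −1.17 in SCLC and by −1.37 and −0.71 in GSK, in the authors' deposited tables. Immune and fibroblast markers were also higher in Normal and in GSK than in SCLC, the immune sum of Normal being mostly Lyz2. The part of immune cells and fibroblasts in the Rest levels was not tested. Whether Rest has a part in any of these changes was not tested.

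The counts of 12 of the 32 genes can be touched by an overlapping gene in the GENCODE M21 annotation, 11 of them by a gene on the other strand. The kit is stranded, but the sources used here do not say whether the counting used strand, so reads of Syn1 and Araf, Syn2 and Timp4, Rab3a and Mpv17l2, or Unc13a and Colgalt1 may have been mixed. The same doubt holds for Syt4, Syt7, Doc2b, Syp, Sv2b, Rab3b and Pclo, whose partners on the other strand are noncoding. All 11 genes are uncertain in level for that reason.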

How the data were processed

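The 9 libraries come from a stranded mRNA kit and were sequenced on an Illumina NovaSeq instrument, per the labels, and aligned with STAR 2.7.9a to GRCm39, per the submitters' processing notes. Which counter, differential expression tool and annotation were used is not given in the sources used here. The deposited files were 2 comparison tables with the column names that DESeq2 writes, per the file headers. They gave the authors' mean of normalized counts over the 6 libraries (a signal value), the authors' log2 fold change with its standard error, the authors' statistic (a score, equal to the change over its error) and the authors' p-value and adjusted p-value. Recomputed Benjamini-Hochberg values differed from the deposited adjusted p-values by at most 0.00355 on the log10 scale.

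No column holds a single library, so depth per library, replicate spread and pairing were not analysed here; the test was the authors' adjusted p under 0.05. Group means were implied from mean and fold change. The control of the second table was taken as SCLC: over 13634 genes its log2 ratio to the SCLC means of the first table had an SD of 0.00837, against 2.02 for the other arm. A group with an implied total under 0.5 was set to a floor of 3 normalized counts for a fold given as "at least"; this is not a confidence limit. Transcript lengths and overlaps came from GENCODE M21 (GRCm38) and promoters from RefSeq (GRCm38.p6), which are not the authors' build. Alternatives were a stricter threshold (0.01), adjustment over all genes with a p-value, a test above 1 log2 unit, scaling to total counts, centring, a mean of at least 50, and median transcript length. The code was tested on simulated data. Python 3.11.15, pandas 2.3.3, numpy 2.4.6 and scipy 1.17.1 were used.

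The 32 genes and all lists were chosen with earlier results of these data known. Named genes are all 32, from each pathway list up to 4 that passed with a mean of at least 50 (those of largest change), all of a direction where 5 or fewer changed, and Rest, Snap23, Vamp8 and Stx3; not every gene of the rule is reported here.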

Additional observations from a re-analysis of the deposited data

How the results depend on the processing

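No paired analysis was possible because the deposited tables hold no value per library, and for the same reason no replicate could be left out. In SCLC against Normal the count of the 32 genes that rose kept within 1.5 times its value of 27 under every alternative run; the count that fell, 1, became 0 when a change above 1 log2 unit was tested and 2 when centred. In GSK against SCLC the count that rose, 2, became 1 under the test above 1 log2 unit and 4 when scaled to total counts, and the count that fell, 11, became 1 and 7. For the other pathway genes in GSK, the test above 1 log2 unit left 10 higher and 9 lower of 28 and 25, and scaling to total counts gave 38 higher and 16 lower. The median level per kb over the 32 genes, 9.76 in Normal, 464 in SCLC and 343 in GSK, became 22.8, 560 and 419 with the median transcript length. No called change of the 32 genes turned direction under these alternatives. A threshold of 0.01 lost Syt7, Syn1 and Rab3d in GSK, as did centring, and adjusting over all genes with a p-value lost Rab3d; the cause was not tested. Depth limits Rph3a, Sv2b, Syt4 and Cplx1, which have 3 or fewer normalized counts over the Normal libraries.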
